A study of Mus musculus with 6 samples.

Results

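Thrombospondins, tenascins, periostin and fibronectin are secreted glycoproteins that tie cells to the collagen and microfibril network. The 10 genes described here are Thbs1, Thbs2, Thbs3, Thbs4, Comp, Tnc, Tnxb, Tnn, Postn and Fn1, taken by gene name from the 55291 genes of the deposited count table. They were measured by RNA sequencing of mouse dorsal skin in 3 wild-type samples (strain C57BL/6) and 3 Tsk samples (strain B6.Cg-Fbn1Tsk/J, genotype written as Fbn1+/-), all at day 40. Tsk, tight skin, is known as an internal duplication in Fbn1, the fibrillin 1 gene, present in every cell, so the labels' genotype is read here as 1 Tsk copy. The labels give neither sex nor whether each sample is a separate animal, so the p-values speak only of the spread between these samples. The skin was homogenised whole, and in such tissue fewer cells of a type and less RNA per cell cannot be told apart.

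Fibronectin is assembled by cells into fibrils through integrin receptors, and collagen, fibrillin microfibrils and latent TGF-beta complexes are laid down on that scaffold. Thrombospondins and tenascins are called matricellular because they mostly adjust how cells grip and read the matrix rather than bear load, and periostin links fibronectin and tenascin C to collagen and helps collagen cross-linking. Tenascin X is the exception among tenascins, since it binds fibrillar collagen in ordinary dermis and its loss gives lax, hyperextensible skin.

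Library totals ran from 17561271 to 19219622 counts, and levels are given as CPM, the count as a share of the library total, after TMM scaling between libraries. Fbn1 itself, the mutated gene, stood at 260.6, 351.2 and 296 CPM in wild-type replicates 1, 2 and 3 and at 1450.0, 2053 and 1781 CPM in Tsk replicates 4, 5 and 6. Wild-type replicate 1 stood apart from the other two in its levels of cell type markers. The 10 skeletal muscle marker genes took 14.1% of its counts against 20.3 and 19.3% in wild-type replicates 2 and 3 and 13.8, 13 and 12.3% in Tsk replicates 4, 5 and 6. Its 8 fibroblast markers summed to 6232 CPM against 10427 and 10937 CPM in the other wild-type libraries. That sum came mostly from Col1a1, Col1a2 and Col3a1, though each of the 8 markers was lowest in replicate 1 within wild type.

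The comparison asked how these genes differed between Tsk and wild-type skin. Fn1 rose 3.39-fold and was the 1 of 10 genes past the threshold, an adjusted p under 0.05 over all 19971 genes tested with edgeR's quasi-likelihood test. Over all genes, 2.72% were called higher in Tsk and 0.696% lower (544 and 139 genes), a balance that was 763 to 618 without wild-type replicate 1. Thbs3 and Tnxb also had all their Tsk libraries above all their wild-type libraries without passing, at 2.34-fold and 2.14-fold. These 3 of 10 genes had groups that did not overlap with Tsk on the higher side, beside 14.1% of all genes tested (24.7% in either direction). The same 3 genes had an unadjusted p under 0.05, as did 20.1% of all genes. No gene of the family was called lower by edgeR, and none had an unadjusted p under 0.05 in that direction, nor did DESeq2, limma-voom or limma-trend call one. The other 7 genes overlapped between the groups. Of the 10 log2 fold changes 6 lay above 0 and 4 below, with a median of 0.55 against -0.03 for all genes tested. That median was 0.27 without Tsk replicate 6 and 0.98 without wild-type replicate 3, and with library totals alone it was 0.82 against 0.25 for all genes.

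**Figure D1:**
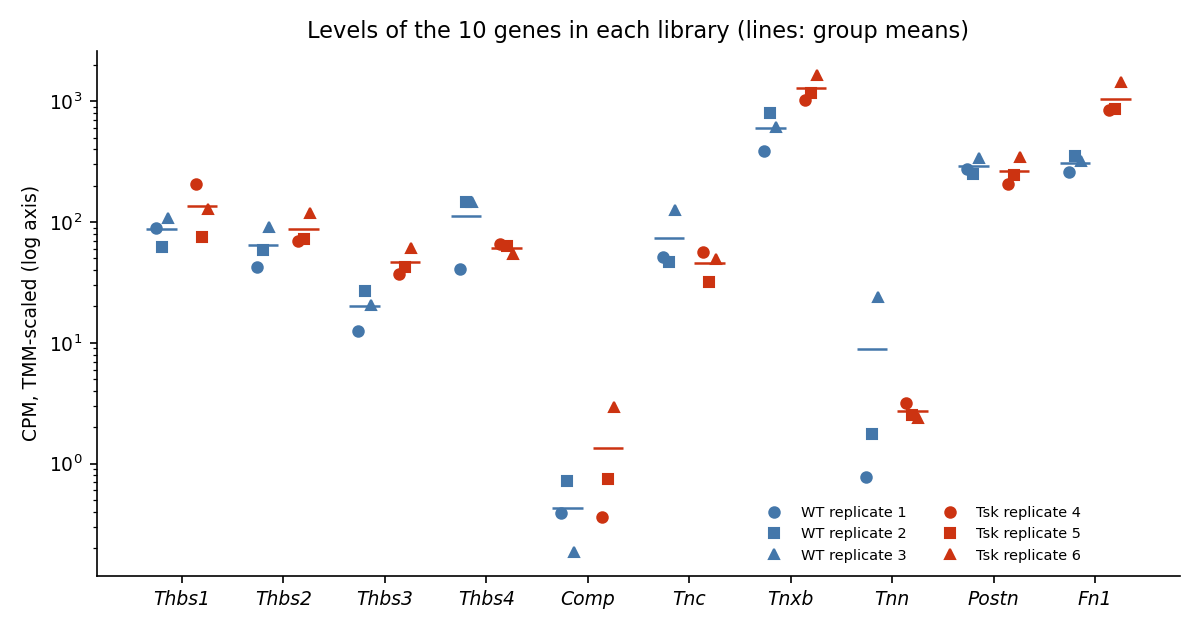
Level of each gene in each library in TMM-scaled CPM on a log axis, wild type in blue and Tsk in red, with symbols for replicates and lines for group means. The Tsk points of Fn1, Tnxb and Thbs3 lie above all wild-type points, while the other 7 genes overlap.

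Fn1, which encodes fibronectin, occupies bases 71585520 to 71653200 of chromosome 1 (mm10, minus strand). It held 257.5, 351.8 and 317.7 CPM in wild-type replicates 1, 2 and 3 and 844.3, 860.4 and 1442 CPM in Tsk replicates 4, 5 and 6. The lowest Tsk library was therefore well above the highest wild-type library, and Tsk replicate 6 stood highest. The fitted log2 fold change was 1.76 ± 0.27 (SE, n = 3 each; edgeR adjusted p = 0.0153), with a 95% interval from 1.16 to 2.37. The call held in 5 of 6 fits that left out 1 library and was lost without wild-type replicate 3, at 1.80 ± 0.35 (edgeR adjusted p = 0.0804). With the mean level of the skeletal muscle markers as a covariate the value was 1.92 ± 0.35, also without passing (edgeR adjusted p = 0.0818). GENCODE M21 lists 17 transcripts of Fn1, and the gene-level count sums forms with and without the alternatively spliced extra domains. Among 15147 genes with mean log2 CPM not below 1, the 3 whose centred log2 profile over the 6 libraries lay nearest to that of Fn1 were Dbn1, Mfap2 and Ntn1. Their root mean square differences from Fn1 were 0.15, 0.15 and 0.16 on the log2 scale, and they rose by 1.89 ± 0.20, 1.94 ± 0.25 and 1.67 ± 0.30 (log2 fold change ± SE).

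**Figure D2:**
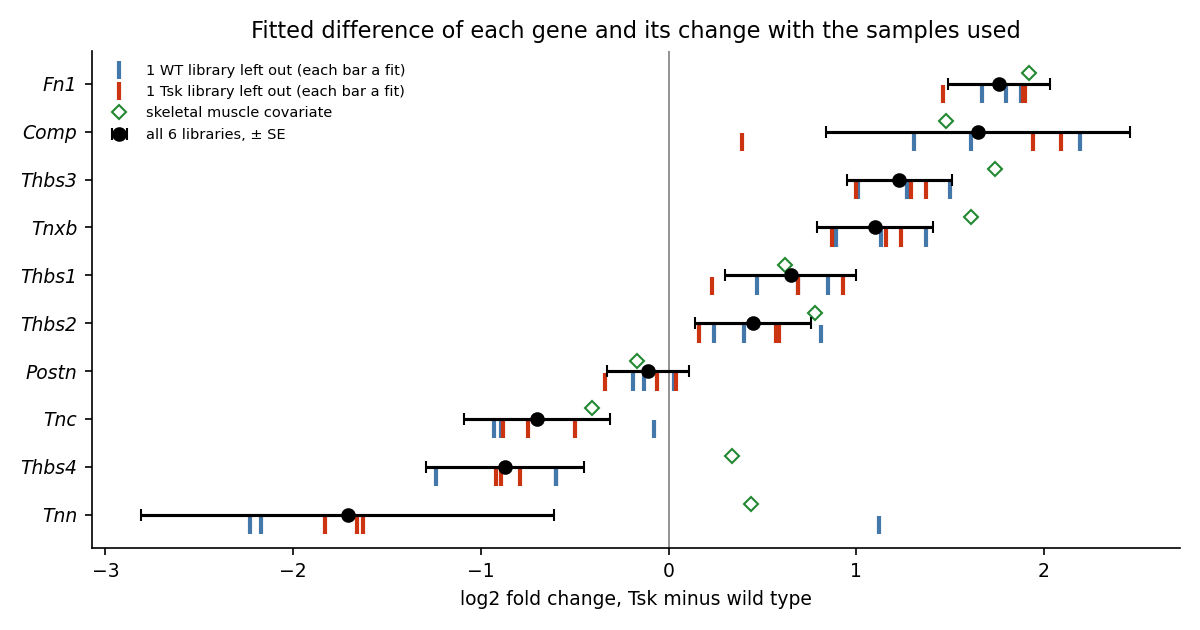
Log2 fold change of each gene, Tsk minus wild type, with all 6 libraries (black, ± SE), with each library left out (bars) and with the skeletal muscle markers as a covariate (diamonds). With a library left out, Fn1 runs from 1.46 to 1.90 and Tnxb from 0.87 to 1.37, whereas Tnn runs from -2.23 to 1.12 when a library is left out and Thbs4 moves to 0.34 with the covariate.

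Thbs3 and Tnxb ran in near parallel across the libraries. Thbs3 encodes a member of the pentamer-forming thrombospondins that lack the type 1 repeats, and Tnxb encodes tenascin X. Thbs3 stood at 12.6, 26.7 and 20.6 CPM in wild-type replicates 1, 2 and 3 and at 37.1, 42.4 and 60.5 CPM in Tsk replicates 4, 5 and 6. In the same order Tnxb stood at 386.4, 801.9 and 615.5 CPM and then at 1027, 1173 and 1662 CPM. In both genes wild-type replicate 1 was lowest, wild-type replicate 2 was the highest of its group and Tsk replicate 6 was the highest of all. The log2 fold change was 1.23 ± 0.28 for Thbs3 (SE; edgeR adjusted p = 0.0568), with a 95% interval from 0.58 to 1.87. For Tnxb it was 1.10 ± 0.31 (SE; edgeR adjusted p = 0.0941), from 0.39 to 1.81. Both were past the threshold with DESeq2, at adjusted p = 0.000688 and 0.00185, and with library totals alone as the scaling and limma-trend on the authors' values. Neither passed with limma-voom, at adjusted p = 0.0551 and 0.0992. Over 10 such alternatives each gene passed in 4. With 1 library left out Thbs3 passed in 2 of 6 fits and Tnxb in 0.

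The count of Thbs3 divided by that of Tnxb, a ratio that no scaling between libraries can move, was 0.0327, 0.0333 and 0.0334 in wild-type replicates 1, 2 and 3. In Tsk replicates 4, 5 and 6 it was 0.0362, 0.0361 and 0.0364. The ratio thus kept within 1.11-fold over all 6 libraries while each gene varied over 2-fold within wild type alone, and it was higher in each Tsk library than in each wild-type library. Tnxb was the 2nd nearest of 15147 genes to Thbs3 in centred log2 profile, with a root mean square difference of 0.063. Many other genes were also close, with 34 genes within 0.2 of Thbs3 and 38 within 0.2 of Tnxb. Among all pairs within the family, Thbs3 and Tnxb lay closest. This pair and the ratios below were chosen after the values were seen, and with 3 libraries against 3 an exact two-sided permutation test cannot go below 0.1. Of the cell type marker lists, the mean of the 8 fibroblast markers lay nearest to both genes, at 0.11 for Thbs3 and 0.14 for Tnxb, and nearest to Fn1, at 0.25. All 8 fibroblast markers had log2 fold changes above 0, with a median of 1.23, and Pi16 and Dpt were called higher. Dcn, Lum and Pdgfra of that list overlapped between the groups. The summed fibroblast markers, mostly Col1a1, Col1a2 and Col3a1, were 6232, 10427 and 10937 CPM in wild type and 19785, 18510 and 42377 CPM in Tsk. The part of fibroblasts in the levels of Fn1, Thbs3 and Tnxb was not tested. Summed markers of other cells also stood higher in all Tsk libraries, with 469.3 to 2420 CPM against 184.5 to 238.8 CPM for 8 adipocyte markers (3 called) and 216.9 to 360.1 against 144.9 to 192.4 CPM for 6 endothelial markers (2 called). So did hair follicle epithelium, at 68.2 to 70.8 against 32 to 65 CPM (4 of 6 called), and dermal papilla, at 11.6 to 20 against 4.91 to 6.22 CPM (1 of 5 called). The hair follicle sum was mostly Tchh, which was not called and overlapped between the groups (log2 fold change -0.16 ± 0.25, SE). Smooth muscle and pericyte markers stood at 340.7 to 443 against 171.2 to 337.2 CPM (1 of 6 called). For macrophage and platelet markers, at 229.6 to 615.5 against 165.9 to 219.8 CPM and 10.7 to 17.6 against 5.57 to 9.19 CPM, edgeR called 0, with 4 and 1 markers at an unadjusted p under 0.05, DESeq2 calling 2 and 1 and limma-voom 0. Dermal papilla was the second nearest list to Fn1, at 0.36, and smooth muscle and pericyte the second nearest to Thbs3 and Tnxb, at 0.35 and 0.32. The summed keratinocyte and Schwann cell markers overlapped between the groups (1 of 5 called in each list), and the part of these cells in the results was not tested.

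**Figure D3:**
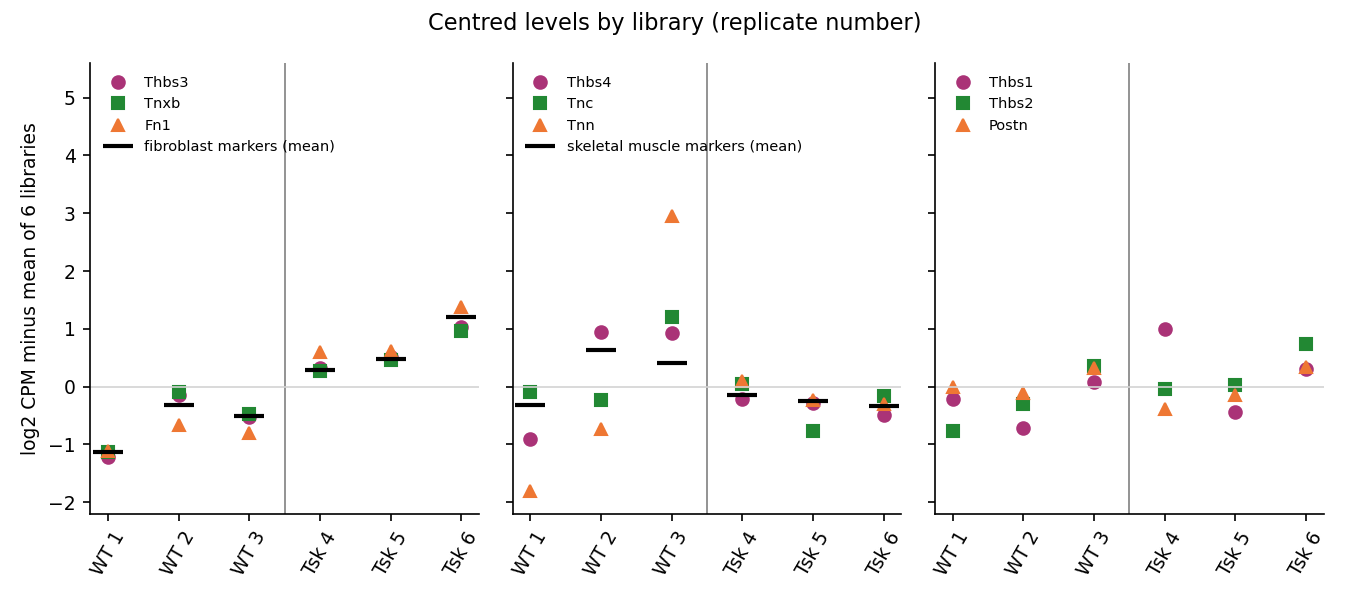
Log2 CPM of 9 of the genes minus the mean of the 6 libraries, with black dashes for the mean of the 8 fibroblast markers (left) and of the 10 skeletal muscle markers (middle); the grey line parts wild type from Tsk. Thbs3 and Tnxb lie almost on top of each other and on the fibroblast dashes, and Thbs4 is high in the 2 wild-type libraries where the muscle dashes are high.

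The sequence before the start of Thbs3 and Tnxb is shown because these 2 genes kept a nearly fixed ratio. RefSeq promoter windows on GRCm38.p6, the assembly behind mm10, were at hand for 7 of the 10 genes, 9 windows in all. Each stretch is the 250 bases before the RefSeq start on the plus strand. The Tnxb stretch ends just before the GENCODE M21 start at 34670535. The deposited span of Tnxb begins upstream at 34660457, so the stretch lies inside that span. Whether reads in the stretch were counted is not known. The windows were searched on both strands for the SMAD half-site CAGAC, the TEAD site CATTCC, the TATA box TATAAA and the GC box GGGCGG, and capitals mark a match (CCGCCC is the GC box read on the other strand).
Thbs3, chr3:89214930-89215179: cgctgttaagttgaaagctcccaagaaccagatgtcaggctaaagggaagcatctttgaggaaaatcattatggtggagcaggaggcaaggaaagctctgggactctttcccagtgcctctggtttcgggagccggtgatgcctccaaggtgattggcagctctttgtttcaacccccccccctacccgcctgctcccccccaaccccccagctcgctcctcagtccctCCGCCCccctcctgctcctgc
Tnxb, chr17:34670285-34670534: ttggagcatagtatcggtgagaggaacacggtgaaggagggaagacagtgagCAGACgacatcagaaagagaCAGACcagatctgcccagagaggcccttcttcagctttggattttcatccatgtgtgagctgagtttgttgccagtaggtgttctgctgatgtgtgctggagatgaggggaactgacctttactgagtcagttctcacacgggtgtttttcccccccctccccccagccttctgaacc
The Thbs3 window held 1 GC box and none of the other motifs, and the Tnxb window held 2 SMAD half-sites and none of the others. None of the 4 motifs was thus shared by the pair in these windows. A GC box occurred in 32.7% and a SMAD half-site in 42.2% of 32851 promoter windows of this length, so both are common letters rather than marks of these genes. The windows were 58.8% and 52.4% G and C.

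Thbs3 spans chromosome 3 from 89215180 to 89226837 on the plus strand and lies wholly within the span of Mtx1 on the minus strand. Mtx1 shares 318 exon bases with it, held 89 to 147 counts per library and stood at a log2 fold change of 0.02 ± 0.19. The kit marks strand, but the strand setting of the counting is not given in the sources used here. Tnxb spans chromosome 17 from 34660457 to 34719815 on the plus strand. At its end it meets a steroid 21-hydroxylase pseudogene on the other strand that held 0 to 6 counts per library.

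Thrombospondins 1 and 2 form trimers, carry the type 1 repeats that restrain blood vessel growth through the receptor CD36, and thrombospondin 1 can also activate latent TGF-beta. Thbs1 (chromosome 2, 118111876 to 118127133, plus strand) stood at 89.1, 62.7 and 108.8 CPM in wild-type replicates 1, 2 and 3. Its Tsk libraries 4, 5 and 6 held 204.7, 75.8 and 127.4 CPM, so that Tsk replicate 5 lay inside the wild-type range. The log2 fold change was 0.65 ± 0.35 (SE; edgeR adjusted p = 0.345; 95% interval -0.14 to 1.44) and was 0.23 without Tsk replicate 4. Thbs1 lies 7.17 megabases from Fbn1 on the same chromosome. Thbs2 (chromosome 17, 14665500 to 14694235, minus strand) stood at 42.1, 58.5 and 91.6 CPM in wild type and 70.0, 72.6 and 119.9 CPM in Tsk. Only Tsk replicate 6 exceeded all 3 wild-type libraries, and the log2 fold change was 0.45 ± 0.31 (SE; edgeR adjusted p = 0.465; 95% interval -0.25 to 1.15). Leaving out Tsk replicate 6 gave 0.16, and leaving out replicate 1 or 3 of the wild type gave 0.24 or 0.81.

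Thbs4 and Comp are the other pentamer-forming thrombospondins, known from muscle, tendon and cartilage. Thbs4 (chromosome 13, 92751590 to 92794818, minus strand) held 40.7, 147.2 and 145.7 CPM in wild-type replicates 1, 2 and 3 and 65.6, 63.0 and 54.4 CPM in Tsk replicates 4, 5 and 6. The 3 Tsk libraries lay close together, with a coefficient of variation of 9.67% against 54.9% in wild type, and lay between wild-type replicate 1 and the other two. With all libraries the log2 fold change was -0.87 ± 0.42 (SE; edgeR adjusted p = 0.295). Without wild-type replicate 1 it was -1.24 ± 0.13 and passed (edgeR adjusted p = 0.00699). The library with the least Thbs4 was also the wild-type library with the smallest share of skeletal muscle markers, and the muscle list was the marker list nearest to Thbs4 in centred profile, at 0.35. With that list as a covariate the value for Thbs4 turned to 0.34 ± 0.19 (edgeR adjusted p = 0.478). The summed muscle markers ran from 137651 to 247473 CPM in wild type and from 109077 to 130420 CPM in Tsk. By that sum, mostly Ttn, all Tsk libraries held less muscle marker than wild-type replicate 1, and all held more Thbs4. Single markers did not all follow the sum. Myh1 and Myh2 were higher in each Tsk library than in wild-type replicate 1, and Ckm and Acta1 were higher in Tsk replicate 4 only. The rest of the 10 markers were lower in each Tsk library. In mean centred log2 level the muscle markers stood at -0.32 in wild-type replicate 1 and at -0.15, -0.25 and -0.34 in Tsk replicates 4, 5 and 6. The part of muscle RNA in the level of Thbs4 was not tested. Of the 10 muscle markers, edgeR called 0 in either direction, 7 had an unadjusted p under 0.05, and DESeq2 called 1 higher and 7 lower while limma-voom called 0.

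Comp (chromosome 8, 70373558 to 70382066, plus strand), the cartilage oligomeric matrix protein gene, was barely present. Its counts were 7, 11 and 3 in wild-type replicates 1, 2 and 3 and 7, 16 and 62 in Tsk replicates 4, 5 and 6. The groups overlapped, and most Comp reads came from Tsk replicate 6. The fitted value of 1.65 ± 0.81 (log2 fold change ± SE; edgeR adjusted p = 0.301) was 0.39 without that library. Cartilage markers were near 0 throughout, with a summed level of 0.668 to 1.04 CPM in wild type and 0.778 to 2.59 CPM in Tsk, and Matn1 was at 0 counts in every library. The 6 tendon markers summed to 98.4 to 261.5 CPM in wild type and 125.1 to 175.2 CPM in Tsk, mostly through Cilp. Of the 5 tendon markers tested edgeR called 0, while 3 had an unadjusted p under 0.05, DESeq2 called 1 and limma-voom 0. The tendon markers did not go one way in Tsk replicate 6, where Comp was high. Fmod (43.5 against 1.89 to 6.64 CPM in the other 5 libraries), Tnmd (4.99 against 0.556 to 2.13), Mkx (3.01 against 0.435 to 1.97) and Kera (2.40 against 0 to 0.0648) were highest there. Scx was lowest there, at 2.73 against 2.81 to 4.47 CPM, and Cilp stood at 118.5 CPM, inside its range of 90.2 to 252.1 CPM over the other libraries. The part of tendon RNA in the level of Comp was not tested.

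Tenascins C and W (Tnc and Tnn) are known as proteins of wounds, tumour stroma and developing or tendon-linked tissue. Tnc (chromosome 4, 63959785 to 64047015, minus strand) stood at 51.1, 46.7 and 125.5 CPM in wild-type replicates 1, 2 and 3 and at 56.3, 32.0 and 49.0 CPM in Tsk replicates 4, 5 and 6. Wild-type replicate 3 was over 2 times any other library. The fitted value of -0.70 ± 0.39 (log2 fold change ± SE; edgeR adjusted p = 0.362; 95% interval -1.59 to 0.19) shrank to -0.08 without it. Tnn (chromosome 1, 160085029 to 160153580, minus strand) had 14, 27 and 385 counts in the wild-type libraries, against 61, 54 and 51 in those of Tsk. Again wild-type replicate 3 held by far the most, whereas the Tsk libraries varied by only 1.32-fold in CPM and lay above the other two wild-type libraries. The Tnn log2 fold change was -1.71 ± 1.10 (SE; edgeR adjusted p = 0.445) with all libraries and 1.12 ± 0.39 without wild-type replicate 3 (edgeR adjusted p = 0.257), so its direction rests on that library. Tnr, the tenascin R gene, known from the nervous system and counted below with the other glycoproteins, was low. It stood at 1.11, 1.94 and 1.99 CPM in wild type and 0.829, 0.655 and 1.08 CPM in Tsk, at -0.96 ± 0.34 (log2 fold change ± SE; edgeR adjusted p = 0.166). The tenascins were thus mixed, with Tnxb higher in all Tsk libraries, Tnr lower in all of them without passing, and Tnc and Tnn overlapping.

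Postn, the periostin gene (chromosome 3, 54361109 to 54391037, plus strand), barely differed. It stood at 272.3, 252.1 and 341.1 CPM in wild-type replicates 1, 2 and 3 and 207.8, 246.8 and 344.7 CPM in Tsk replicates 4, 5 and 6. The groups covered nearly the same range, the fitted value being -0.11 ± 0.22 (log2 fold change ± SE; edgeR adjusted p = 0.825) with a 95% interval from -0.62 to 0.39, which excludes the size seen for Fn1. It turned to 0.17 with library totals alone, to 0.01 with limma-trend, and to 0.03 and 0.04 without wild-type replicate 3 or Tsk replicate 4. Within libraries, the count of Postn divided by that of Fn1 was 1.06, 0.717 and 1.07 in wild type and 0.246, 0.287 and 0.239 in Tsk. Periostin and fibronectin messages were thus at like counts in wild type, while in Tsk Fn1 counts were at least 3 times those of Postn in each library. Tnxb against Postn separated the groups too, with 1.42, 3.18 and 1.80 Tnxb counts per Postn count in wild type against 4.94, 4.75 and 4.82 in Tsk. Such separation was not particular to these pairs. Thbs2, Thbs4 and Tnc against Fn1 or against Tnxb also separated the groups, while most ratios between family genes overlapped.

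**Figure D4:**
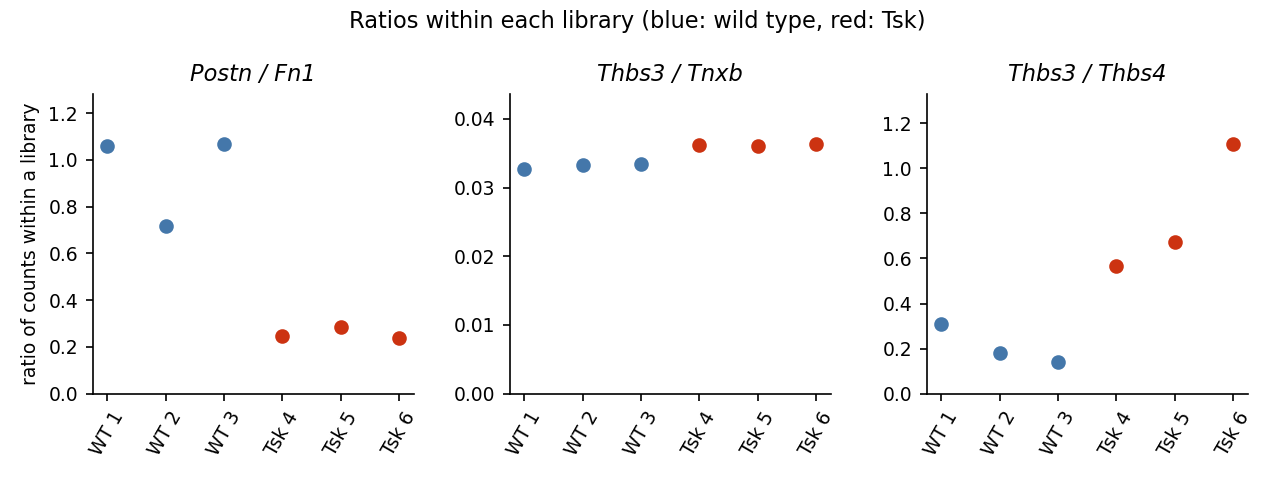
Ratios of counts of 2 genes within each library, wild type in blue and Tsk in red, each axis starting at 0. Postn over Fn1 is 0.717 to 1.07 in wild type and 0.239 to 0.287 in Tsk, Thbs3 over Tnxb stays between 0.0327 and 0.0364, and Thbs3 over Thbs4 is 0.141 to 0.311 in wild type and 0.566 to 1.11 in Tsk.

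Levels of different genes were set side by side per kilobase of exon, with the union of all GENCODE M21 exons of a gene as its length. A union can be longer than the transcripts present (9 are listed for Postn and 17 for Fn1). The order of genes and their shares below therefore depend on that choice of length. On this scale Tnxb led the family in both groups, with 49.2 ± 17.0 CPM per kilobase (SD, n = 3) among wild-type libraries and 105 ± 27.3 (SD, n = 3) among those of Tsk. In wild type Thbs4 (33.8 ± 18.6), Postn (33.2 ± 5.36) and Fn1 (26.4 ± 4.09) followed, and neighbours among these 4 genes overlapped. In Tsk Fn1 stood in the second place at 89.8 ± 29.1, overlapping Tnxb and clear of Postn at 30.6 ± 8.11 in every library. Thbs1 came next in Tsk at 22.4 ± 10.7, then Thbs4 at 18.5 ± 1.78, Thbs2 at 12.5 ± 4.01 and Thbs3 at 9.68 ± 2.54, each overlapping its neighbour. Tnc, Tnn and Comp were lowest in Tsk, at 5.89 ± 1.60, 0.463 ± 0.0702 and 0.453 ± 0.465. In wild type Thbs1 (14.3 ± 3.81), Tnc (9.58 ± 5.70) and Thbs2 (9.15 ± 3.60) overlapped and stood clear of Thbs3 (4.14 ± 1.47). Tnn (1.51 ± 2.25) and Comp (0.145 ± 0.0896) closed the wild-type order. For reference, Fbn1 stood at 25 ± 3.76 in wild type, close to Fn1, and at 145 ± 24.9 CPM per kilobase in Tsk. The same GENCODE M21 length served both groups, without the Tsk duplication within Fbn1. The Tsk level of Fbn1 is thus not strictly on the wild-type scale.

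The length of Tnxb is that of its GENCODE M21 exons, while the span deposited with its counts begins earlier. Its level per kilobase, its first place and all shares therefore rest on a length that may differ from the one counted. In wild-type replicate 1 it led Postn only by 31.6 to 31.3 CPM per kilobase. As shares of the family's summed CPM per kilobase, Fn1 took 17.3, 15 and 12.6% in wild-type replicates 1, 2 and 3 and 27.9, 29.0 and 32.9% in Tsk replicates 4, 5 and 6. Postn took 24.6, 14.5 and 18.1% in wild type and 9.21, 11.2 and 10.6% in Tsk. Both shares separated the groups, in opposite directions. Thbs4 took 9.73, 22.4 and 20.4% in wild type and 7.67, 7.57 and 4.42% in Tsk, while Tnxb overlapped at 24.8, 32.8 and 23.3% against 32.4, 37.8 and 36.4%. Shares add up to a whole, so a larger share of one gene lowers the others, and an exact two-sided permutation test of such a share reaches at best 0.1.

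**Figure D5:**
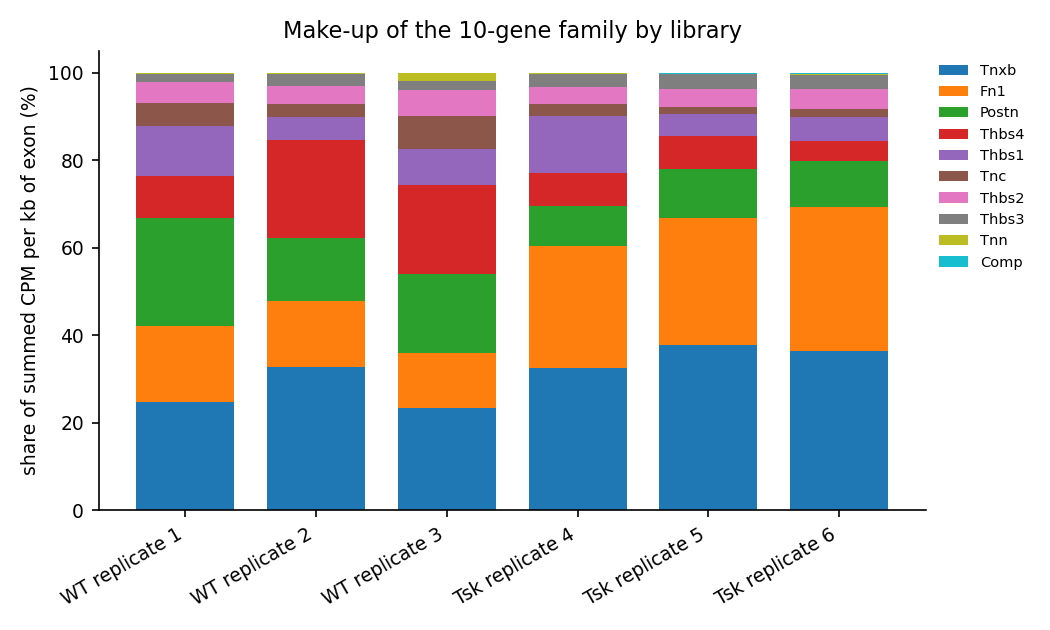
Stacked bars of the share of each gene in the summed CPM per kilobase of exon of the 10 genes, 1 bar per library. The Fn1 share is 12.6 to 17.3% in wild type and 27.9 to 32.9% in Tsk, and the Postn share is 14.5 to 24.6% and 9.21 to 11.2%.

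Genes that work with this family were counted from lists, against the 3.42% of all genes called in either direction. An unadjusted p under 0.05 (edgeR) was reached by 20.1% of all genes. Among 17 receptors, which take in integrin chains, Cd36, Cd47, syndecans and Lrp1, 1 rose past the threshold, with a list median of 0.09. At an unadjusted p under 0.05 there were 11 receptors, 7 higher and 4 lower. The called receptor was Itgb3, the beta 3 chain of an integrin for fibronectin, periostin and other RGD proteins, at 6.73, 8.36 and 9.44 CPM in wild type and 15.2, 19.3 and 18.9 CPM in Tsk. Its log2 fold change was 1.12 ± 0.17 (SE; edgeR adjusted p = 0.0157). Its usual partner Itgav stood at -0.30 ± 0.13, and the main fibronectin receptor chains Itga5 and Itgb1 stood at 0.07 ± 0.21 and -0.07 ± 0.15, none past the threshold and named after their values were seen.

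Of 15 other matricellular and adhesive glycoproteins, 2 rose and 1 fell past the threshold, with a median of 0.60. With an unadjusted p under 0.05 as the mark, 8 were higher and 3 lower. Ccn3 and Fstl1, which encode a CCN family protein and a secreted follistatin-like glycoprotein, rose by 4.33 ± 0.20 and 1.84 ± 0.25 (edgeR adjusted p = 0.000126 and 0.0105). Spp1, the osteopontin gene, fell by 1.74 ± 0.24 on the log2 scale, from 8.57, 5.38 and 6.58 CPM in wild type to 2.13, 1.73 and 2.31 CPM in Tsk (edgeR adjusted p = 0.0115). Tgfbi, the close relative of periostin, stood at -0.12 ± 0.17, much like Postn, and was named after its value was seen.

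Of 17 matrix partners 16 were tested, with 4 called higher, 1 called lower and a median of 1.21. Far more had an unadjusted p under 0.05, with 13 higher and 1 lower. Besides Fbn1, Col14a1, whose fibril-associated collagen binds tenascin X, rose by 2.14 ± 0.30 (edgeR adjusted p = 0.0131), and Ccdc80, a secreted matrix protein gene, rose by 1.59 ± 0.31 (edgeR adjusted p = 0.0331). Bmp1, a procollagen protease that periostin binds, rose by 1.23 ± 0.19 (edgeR adjusted p = 0.0156). Tgm2, the transglutaminase that cross-links fibronectin, fell by 0.89 ± 0.17 on the log2 scale, from 301.8, 331.1 and 327.5 CPM in wild type to 200.3, 140 and 177 CPM in Tsk (edgeR adjusted p = 0.0314). Ccdc80 was the 1 called member beyond the first 4 and was named after its value was seen.

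Of 11 modifiers and proteases of these glycoproteins 1 rose past the threshold, Mmp14, a membrane-bound matrix protease gene, at 1.26 ± 0.26 (edgeR adjusted p = 0.0378), with a median of 0.45. In this list 6 genes had an unadjusted p under 0.05, all higher. Of 12 TGF-beta pathway genes 1 rose past the threshold, the receptor gene Tgfbr2 at 0.94 ± 0.20 (edgeR adjusted p = 0.0410), with a median of 0.09. Here 4 higher and 1 lower gene had an unadjusted p under 0.05. Of 10 immediate early genes edgeR called 0, while 3 had an unadjusted p under 0.05 and DESeq2, limma-voom and limma-trend each called 0. The most abundant of these, Nr4a1 and Jun, stood at -0.97 ± 0.37 and -0.17 ± 0.16.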

How the data were processed

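Estimated counts per gene of 6 dorsal skin libraries were deposited by the authors, of which 30.1 to 32.6% per library differed from a whole number by more than 0.001. Per the labels' protocols, total RNA was depleted of ribosomal RNA and made into stranded libraries. Per the submitters' processing notes, bcl2fastq 2.19.1.403, STAR and Partek 7.0 were used on mm10, while the gene models and the way reads were assigned to genes are not named in those notes. The authors' TMM-normalised signal (CPM times 1 factor per library) served 1 alternative. The deposited CPM and TPM tables were not used.

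Expected counts were rounded and tested with edgeR 4.0.16 in R 4.3.3 (quasi-likelihood F-test, robust, TMM factors of 0.823 to 1.13, default filter with minimum count 10 and minimum total 15), with Benjamini-Hochberg adjustment. All 10 genes passed the filter, Comp through counts of 11, 16 and 62. Replicates differed by at least 8.02 in chi-square per degree of freedom, above sampling noise. The SE is the log2 fold change over the square root of F. Exon lengths are the union of GENCODE M21 exons, and gene ends are the deposited stop minus 1. Start and end both matched GENCODE M21 for 9 of the 10 genes. For Tnxb the end matched, but the deposited span begins earlier. Marker lists are descriptions without a test. Reads carry no molecular identifiers, so counts are not independent molecules.

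The genes and lists were chosen with earlier results of these data known. Named are the 10 genes, Fbn1, up to 4 called genes per list with the smallest p (or the 2 most abundant where none was called), and the 3 genes nearest to each called gene. Alternatives were other scalings and filters, DESeq2 1.42.0, limma 3.58.1 (voom, and trend on log2 of the authors' value plus 1), a muscle covariate and leaving out each library. The edgeR step was tested on simulated data.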

Additional observations from a re-analysis of the deposited data

How the results depend on the processing

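Beside 683 genes called (544 higher, 139 lower), library totals alone gave 1791 (1695 higher) with the median of all genes moved from -0.03 to 0.25, no filter gave 1157, DESeq2 1547, limma-trend on the authors' values 1253 and the muscle covariate 75. Leaving out 1 library gave 63 (without wild-type replicate 3) to 1381 (763 higher and 618 lower, without wild-type replicate 1). Family genes called numbered 1, but 2 with RLE factors (Fn1, Thbs3) or no filter (Fn1, Tnxb), 3 with library totals, DESeq2 or limma-trend (Fn1, Thbs3, Tnxb), and 0 with the muscle covariate in edgeR, where 3 had an unadjusted p under 0.05. Without 1 library they numbered 0 to 3, with 0 (5 at an unadjusted p under 0.05) without wild-type replicate 3 and 3 (Fn1, Thbs3, Thbs4) without wild-type replicate 1. Directions turned for Postn with library totals (0.17) and limma-trend (0.01) and over left-out libraries (-0.34 to 0.04), for Thbs4 with the muscle covariate (0.34) and for Tnn with that covariate (0.44) and over left-out libraries (-2.23 to 1.12). The cause was not tested. Of 158 values of single genes under alternatives, 138 kept direction and side of the threshold. Comp was not tested at a minimum count of 50 and DESeq2 gave no p for Tnn. No paired analysis was possible because wild-type samples are numbered 1 to 3 and Tsk samples 4 to 6. Comp had only 3 to 62 counts per library. Tnn had 14 to 385, with the 385 in wild-type replicate 3.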
